A study of Mus musculus with 16 samples.

Results

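Of the 30102 mouse genes with a usable probe set, 7 are described here: the smooth muscle contractile genes Acta2, Tagln, Cnn1, Myl9, Tpm1 and Tpm2, and the matrix gene Thbs1. They were chosen by name, with earlier results of these data known, and all 7 were followed in every sample whatever their values. RNA from 8 lines of male 129SV mouse embryonic stem cells (ESCs) was hybridised to 16 Affymetrix arrays, 1 array per line after 12 days without the self-renewal cytokine LIF and 1 per line in medium with LIF. Of the 7 lines made from EBRTcH3 ESCs, all lack every isoform of endogenous MBD3, a subunit of the NuRD chromatin-remodelling and deacetylase complex, and carry a stably introduced construct. The 3 lines that lack a coiled coil in MBD3 are Mbd3 knockouts with an empty vector, with MBD3a deleted for its coiled coil, and with MBD3a deleted for both its methyl-CpG-binding domain (MBD) and its coiled coil ("doubly deleted"). The 5 lines that retain a coiled coil are Mbd3 knockouts with MBD3a deleted for the MBD ("MBD-deleted"), with MBD3a, with MBD3b and with MBD3c, and the EBRTcH3 parent with its own Mbd3. The labels do not say whether a line is 1 clone, and each line has 1 array per condition, so the spread measured is that between lines and not between cultures of 1 line.

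In smooth muscle, actin thin filaments slide along myosin filaments. Acta2 encodes the smooth muscle actin, Tagln (transgelin) and Cnn1 (calponin) encode related actin-binding proteins, Tpm1 and Tpm2 encode tropomyosins that lie along the filament, and Myl9 encodes a regulatory light chain of myosin. Such genes are classic targets of serum response factor (SRF), which binds CArG boxes with its partners myocardin or the myocardin-related factors (MRTFs). MRTFs enter the nucleus as free actin is taken into filaments, and TGF-beta raises the same genes in many mesenchymal cells. Thbs1 encodes thrombospondin-1, a secreted matrix protein that can activate latent TGF-beta. Smooth muscle actin and transgelin are also made by cells other than mature smooth muscle, such as myofibroblasts and early embryonic cells.

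Promoter windows of 250 bases before to 50 bases after the annotated start were found in RefSeq for 5 of the 7 genes, on mouse build GRCm38.p6. Those of Acta2, Myl9 and Tpm1 are shown because they hold the motifs that were searched, namely the CArG box, in which the 6 central letters between CC and GG are all A or T, the CArG-like box, in which 1 of the 6 is G or C, and the MCAT motif CATTCC, the site of TEAD factors. Motif letters are in capitals, 5′ to 3′ on the strand of the gene. The windows lie at chr19:34255324-34255623 (minus strand, Acta2), chr2:156775214-156775513 (plus strand, Myl9) and chr9:67049164-67049463 (minus strand, Tpm1).
Acta2: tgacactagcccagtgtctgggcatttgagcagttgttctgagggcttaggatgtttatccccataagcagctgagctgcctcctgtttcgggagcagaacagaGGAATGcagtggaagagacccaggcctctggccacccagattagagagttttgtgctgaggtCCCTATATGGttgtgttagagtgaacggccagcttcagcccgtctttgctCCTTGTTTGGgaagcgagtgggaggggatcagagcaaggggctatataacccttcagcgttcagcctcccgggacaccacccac
Myl9: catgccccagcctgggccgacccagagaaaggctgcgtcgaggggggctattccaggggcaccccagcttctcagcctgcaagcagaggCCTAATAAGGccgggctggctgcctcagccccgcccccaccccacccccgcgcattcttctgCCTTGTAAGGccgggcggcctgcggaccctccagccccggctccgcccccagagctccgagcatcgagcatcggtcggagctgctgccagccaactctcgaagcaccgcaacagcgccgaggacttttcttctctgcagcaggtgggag
Tpm1: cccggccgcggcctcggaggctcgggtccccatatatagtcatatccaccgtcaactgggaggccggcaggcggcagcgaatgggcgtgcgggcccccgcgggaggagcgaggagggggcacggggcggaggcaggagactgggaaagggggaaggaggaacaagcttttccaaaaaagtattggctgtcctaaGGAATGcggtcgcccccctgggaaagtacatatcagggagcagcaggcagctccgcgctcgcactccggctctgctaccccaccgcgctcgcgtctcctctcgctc
The Acta2 window held 2 CArG-like boxes, CCCTATATGG with its first base 84 bases before the start and CCTTGTTTGG at 34 bases, and an MCAT motif read on the other strand, GGAATG, at 146 bases. In Myl9 there was a CArG box, CCTAATAAGG, at 161 bases and a CArG-like box, CCTTGTAAGG, at 99 bases. Tpm1 held only the MCAT motif, at 56 bases, while the windows of Cnn1 (chr9:22099003-22099302, plus strand) and Tpm2 (chr4:43523505-43523804, minus strand) held none of the 3 motifs. Over 32851 RefSeq promoter windows of this kind, searched on both strands, 1.63% held a CArG box, 8.5% a CArG-like box and 14.7% an MCAT motif. A match describes letters in this window only.

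The deposited values are log2 signals, so a difference of 1 is a doubling of signal. All 7 genes had 1 probe set each, brighter than the 40th percentile of the array on all 16 arrays (4.24 to 4.38 log2). Array medians were 4.72 to 4.85, and pairs of arrays correlated at 0.971 to 0.995. Signal of the deleted gene Mbd3 was 7.45 without LIF and 7.00 with LIF in the empty-vector line, and 8.45 to 9.59 without LIF and 8.48 to 9.15 with LIF in the others. The arrays are titled in 2 runs of numbers, 10 arrays (EBRTcH3, MBD3a, MBD3b, MBD3c and empty vector) and 6 arrays (MBD-deleted, coiled-coil-deleted, doubly deleted), and the run is given beside the comparisons it touches. Levels of different genes cannot be set against each other on these arrays, only the same gene across samples.

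After 12 days without LIF, 6 of the 7 genes were far lower in the lacking than in the retaining lines. On LIF withdrawal the mean change of the 7 genes was 1.28- to 3.60-fold in the 3 lacking lines, against 2.99- to 35.5-fold in the 5 retaining lines. Tagln, Acta2 and Thbs1 showed the widest separation and Myl9 the narrowest, as the plot of signal in each line and condition shows. In the sentences below, the lacking lines are in the order empty vector, coiled-coil-deleted, doubly deleted, and the retaining lines in the order MBD-deleted, MBD3a, MBD3b, MBD3c, EBRTcH3.

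**Figure D1:**
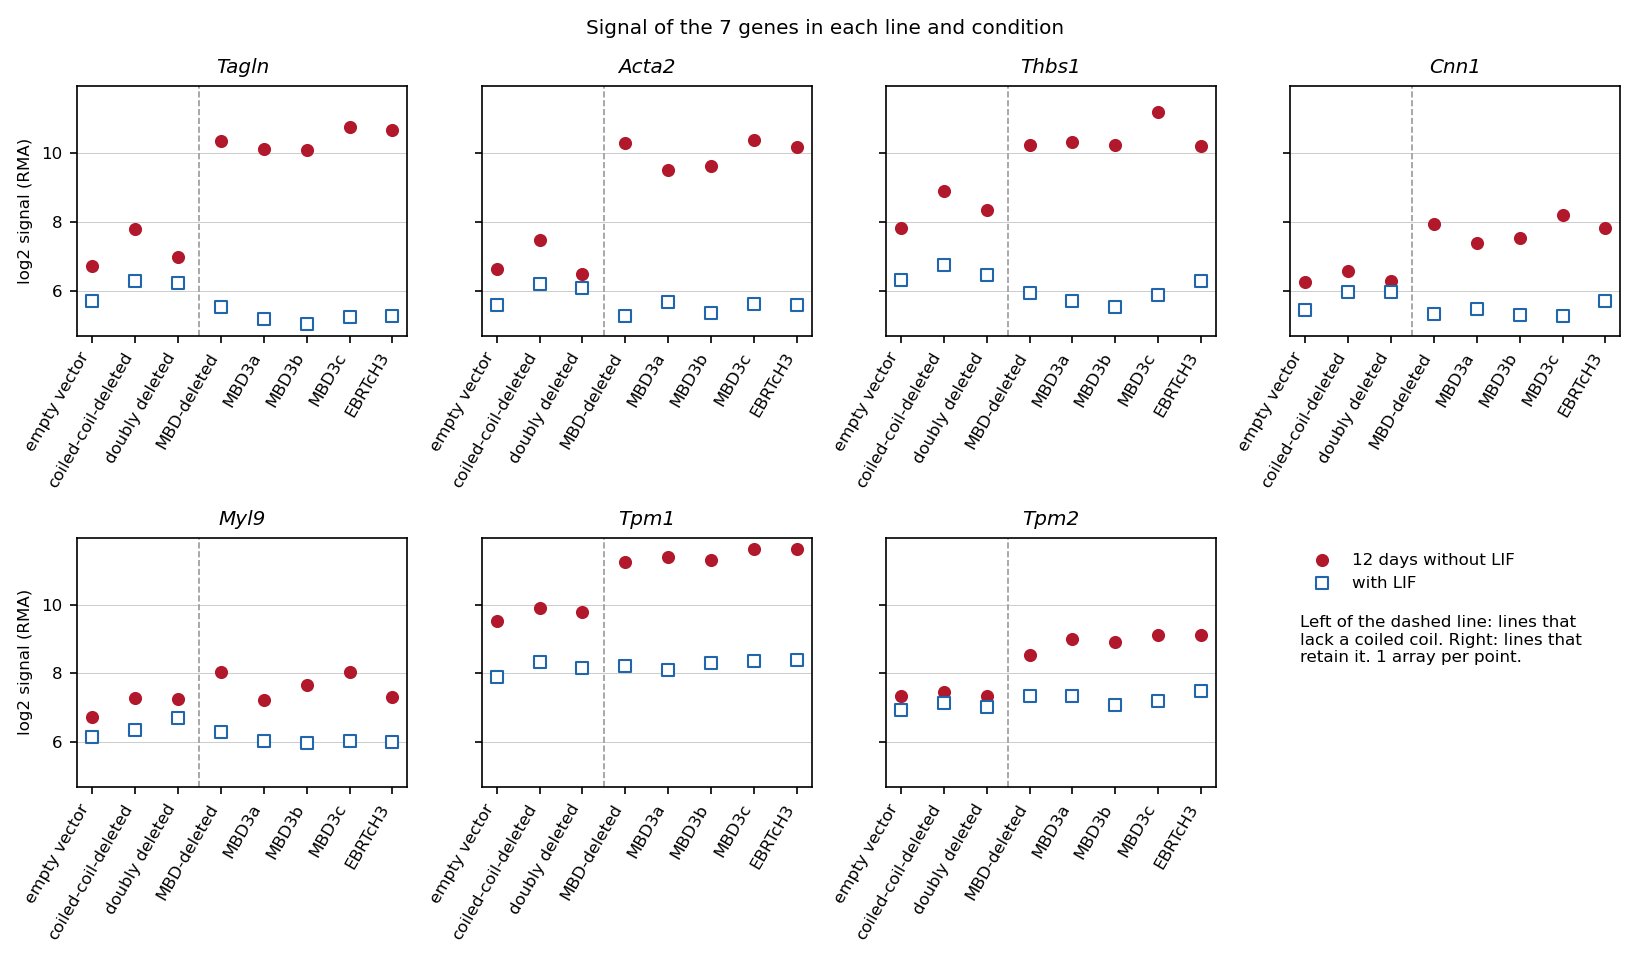
Log2 signal (vertical axis, RMA) of each of the 7 genes in the 8 lines (horizontal axis), after 12 days without LIF (filled circles) and with LIF (open squares), 1 array per point. Lines that lack a coiled coil are left of the dashed line. Without LIF, Tagln sits between 6.72 and 7.81 in the lacking lines and between 10.09 and 10.75 in the retaining lines.

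Acta2, the smooth muscle actin gene, had log2 signals without LIF of 6.64, 7.48 and 6.49 in the lacking lines, against 10.29, 9.50, 9.64, 10.38 and 10.18 in the retaining lines. With LIF it had 5.59, 6.19 and 6.08 in the lacking lines, against 5.28, 5.67, 5.35, 5.62 and 5.60 in the retaining lines. Without LIF every lacking line was below every retaining line by at least 2 log2 units, whereas with LIF the classes overlapped. The change on LIF withdrawal was 0.92 ± 0.45 in the lacking lines (SD, n = 3), against 4.49 ± 0.45 in the retaining lines (SD, n = 5). That difference was -3.58 ± 0.27 (SE; limma, adjusted p = 6.54e-05). The doubly deleted line had the smallest change, 0.41.

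Tagln, which encodes transgelin, had signals without LIF of 6.72, 7.81 and 6.99 in the lacking lines, against 10.35, 10.12, 10.09, 10.75 and 10.68 in the retaining lines. With LIF the order of the classes was turned, with 5.71, 6.29 and 6.24 in the lacking lines and 5.53, 5.17, 5.03, 5.25 and 5.26 in the retaining lines. The classes did not overlap in either condition. LIF withdrawal raised Tagln by 1.09 ± 0.39 (SD, n = 3; 2.13-fold) in the lacking lines, against 5.15 ± 0.30 (SD, n = 5; 35.5-fold) in the retaining lines. The change in the lacking lines was thus 21.2% of that in the retaining lines on the log2 scale, and the difference was -4.06 ± 0.21 (SE; limma, adjusted p = 5.26e-06).

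Cnn1, the calponin gene, had signals without LIF of 6.26, 6.58 and 6.29 in the lacking lines, against 7.94, 7.38, 7.53, 8.20 and 7.82 in the retaining lines. Signals with LIF were 5.44, 5.97 and 5.98 in the lacking lines, against 5.32, 5.46, 5.29, 5.27 and 5.71 in the retaining lines. The lacking lines were all lower without LIF, and the classes overlapped with LIF. The response was 0.58 ± 0.26 in the lacking lines (SD, n = 3), which did not pass (limma, adjusted p = 0.122), against 2.36 ± 0.41 in the retaining lines (SD, n = 5). The responses differed by -1.78 ± 0.22 (SE, adjusted p = 0.000745).

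Myl9, the myosin light chain gene, separated the classes least. Without LIF it had signals of 6.75, 7.30 and 7.25 in the lacking lines, against 8.03, 7.23, 7.66, 8.03 and 7.31 in the retaining lines. With LIF the signals were 6.15, 6.36 and 6.72 in the lacking lines, against 6.30, 6.03, 5.97, 6.05 and 6.01 in the retaining lines. Without LIF the coiled-coil-deleted and doubly deleted lines overlapped the MBD3a and EBRTcH3 lines, so that only the changes kept the classes apart. Those changes were 0.69 ± 0.22 (SD, n = 3) in the lacking lines and 1.58 ± 0.32 (SD, n = 5) in the retaining lines. The difference of -0.89 ± 0.19 (SE; limma, adjusted p = 0.0124) no longer passed without the doubly deleted line (-0.81, adjusted p = 0.0638).

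The tropomyosin gene Tpm1 rose in every line. Its signals without LIF were 9.52, 9.91 and 9.79 in the lacking lines, against 11.24, 11.39, 11.30, 11.62 and 11.61 in the retaining lines. With LIF they were 7.89, 8.33 and 8.16 in the lacking lines, against 8.22, 8.10, 8.31, 8.36 and 8.38 in the retaining lines. The changes were close to uniform within a class, 1.61 ± 0.03 (SD, n = 3) in the lacking lines against 3.16 ± 0.14 (SD, n = 5) in the retaining lines. Lacking lines reached 51.1% of the log2 change of the retaining lines, the highest share of the 7 genes, and the difference was -1.54 ± 0.12 (SE; limma, adjusted p = 7.37e-05). Tpm1 makes muscle and non-muscle isoforms, which 1 probe set per gene cannot tell apart.

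The other tropomyosin gene, Tpm2, changed little in the lacking lines. Signals without LIF were 7.35, 7.46 and 7.36 in the lacking lines, against 8.55, 9.01, 8.91, 9.12 and 9.12 in the retaining lines. Signals with LIF were 6.94, 7.13 and 7.02 in the lacking lines, against 7.34, 7.36, 7.08, 7.19 and 7.49 in the retaining lines. Even without LIF, the lacking lines lay within the range that the retaining lines had with LIF. The response was 0.36 ± 0.04 (SD, n = 3) in the lacking lines, which did not pass (limma, adjusted p = 0.191), against 1.65 ± 0.28 (SD, n = 5) in the retaining lines, a difference of -1.29 ± 0.16 (SE, adjusted p = 0.000765).

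Thbs1, the thrombospondin-1 gene, kept the largest rise of the 7 genes in the lacking lines. Its signals without LIF were 7.83, 8.90 and 8.34 in the lacking lines, against 10.23, 10.32, 10.25, 11.19 and 10.21 in the retaining lines. With LIF it had 6.31, 6.75 and 6.47 in the lacking lines, against 5.94, 5.71, 5.52, 5.89 and 6.29 in the retaining lines. The classes did not overlap in either condition, and with LIF the lacking lines were the higher ones. LIF withdrawal raised Thbs1 by 1.85 ± 0.32 (SD, n = 3; 3.60-fold) in the lacking lines, against 4.57 ± 0.52 (SD, n = 5; 23.8-fold) in the retaining lines. The difference was -2.72 ± 0.27 (SE; limma, adjusted p = 0.000203).

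**Figure D2:**
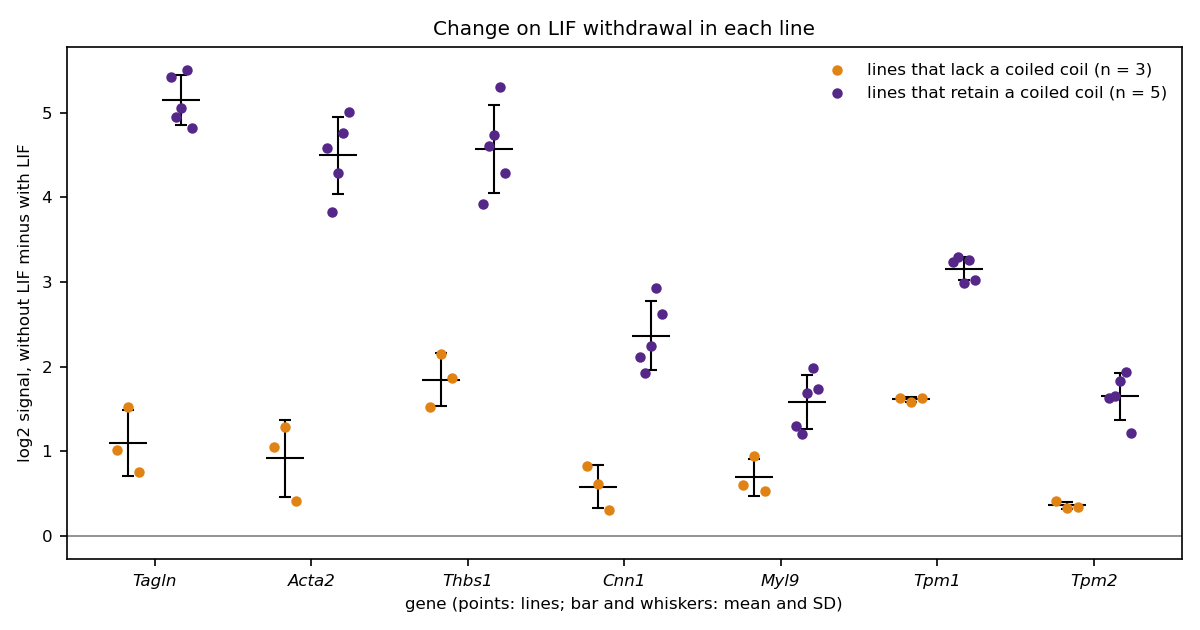
Change in log2 signal on LIF withdrawal (vertical axis, without minus with LIF) of each of the 7 genes (horizontal axis) in each line, for the 3 lines that lack (left) and the 5 lines that retain (right) a coiled coil. Bars and whiskers are the mean and SD, and for no gene do the classes overlap.

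LIF withdrawal raised 5 of the 7 genes in the lacking lines and all 7 in the retaining lines (limma, Benjamini-Hochberg adjusted p under 0.05). Over the 22872 genes tested, 1.71% rose in the lacking lines and 21.3% in the retaining lines. Fitted over all 8 lines, all 7 rose by 1.17 to 3.63 log2, where 15.1% of tested genes rose. The 7 responses were all lower in the lacking than in the retaining lines, against 7.9% of tested genes, and in none did the responses of the classes overlap, which held with lacking below retaining for 11.5% of tested genes. Within the first run of titles the 7 differences in response were -0.94 to -4.22, and within the second -0.88 to -4.16. The median change of the 7 was 0.92 in the lacking lines and 3.16 in the retaining lines, while over all tested genes it was -0.00 and 0.04.

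In the lacking lines the calls for Acta2 (limma, adjusted p = 0.0442), Myl9 (adjusted p = 0.0349) and Tagln (adjusted p = 0.00723) depended on the lines fitted. Each of these genes had a positive change in every lacking line. Without the empty-vector line, Acta2 was at 0.85 (adjusted p = 0.235), Myl9 at 0.735 (adjusted p = 0.141) and Tagln at 1.14 (adjusted p = 0.0564). Calls over all tested genes then fell from 670 to 114. Without the coiled-coil-deleted line, Acta2 was at 0.73 (adjusted p = 0.239) and Myl9 at adjusted p = 0.206. The call for Acta2 was also lost without EBRTcH3 (adjusted p = 0.0581), MBD3b (adjusted p = 0.0662) or MBD3c (adjusted p = 0.0634), and that for Myl9 without MBD3b (adjusted p = 0.055) or the doubly deleted line (adjusted p = 0.0989). Leaving out a retaining line alters only the spread that the classes share, so Acta2 stayed at 0.92 and Myl9 at 0.69. Fitted with no block for the line, 3 of the 7 passed in the lacking lines. Tpm1 (adjusted p = 6.22e-05) and Thbs1 (adjusted p = 0.00154) had the lowest adjusted p of the 7 in these lines. For all 7 genes the lacking lines without LIF lay above the same lines with LIF with no overlap, as did 10.4% of tested genes, and for the retaining lines the same was true of all 7 and of 15.3%.

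In medium without LIF, 6 of the 7 genes were lower in the lacking than in the retaining lines, against 12.4% of tested genes. The exception, Myl9, differed by -0.55 ± 0.21 (SE; limma, adjusted p = 0.0999), and by -0.78 (adjusted p = 0.026) with the run of titles as a covariate. Tagln differed by -3.22 ± 0.24, Acta2 by -3.13 ± 0.26, Thbs1 by -2.08 ± 0.27, Tpm1 by -1.69 ± 0.12, Tpm2 by -1.55 ± 0.13 and Cnn1 by -1.40 ± 0.17, with adjusted p from 1.87e-05 to 0.000569. The same 6 genes did not overlap between the classes, which held in this direction for 14.7% of tested genes. Within the first run of titles, which holds 1 lacking line, the 6 differences were -1.47 to -3.69. Within the second, which holds 2 lacking lines and 1 retaining line, they were -1.14 to -3.31.

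With LIF the differences were smaller and mostly ran the other way. Tagln was higher in the lacking lines by 0.83 ± 0.15 (SE; limma, adjusted p = 0.00472) and Thbs1 by 0.64 ± 0.17 (adjusted p = 0.0266), while 7.65% of tested genes were higher. These 2 genes also did not overlap between the classes, as held in that direction for 11.8% of tested genes. Acta2 (0.45), Cnn1 (0.39), Myl9 (0.34), Tpm1 (-0.15) and Tpm2 (-0.26) did not pass, with adjusted p from 0.0734 to 0.465. Within the first run of titles the differences were 0.53 for Tagln, 0.46 for Thbs1, 0.03 for Acta2 and 0.01 for Cnn1, and within the second 0.74, 0.67, 0.86 and 0.66. Neither Tagln nor Thbs1 passed within the first or the second run. Each run holds only 1 line of 1 class, lacking in the first and retaining in the second, so this cannot decide. With the run as a covariate Thbs1 did not pass (0.55; limma, adjusted p = 0.0927). The call for Thbs1 was also lost without the coiled-coil-deleted (0.52, adjusted p = 0.127), doubly deleted (0.66, adjusted p = 0.0759), MBD3a (0.60, adjusted p = 0.0618) or MBD3b line (adjusted p = 0.0543). Without the empty-vector line, Acta2 (0.63, adjusted p = 0.0133), Cnn1 (0.57, adjusted p = 0.0219) and Myl9 (0.47, adjusted p = 0.0446) passed as well.

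**Figure D3:**
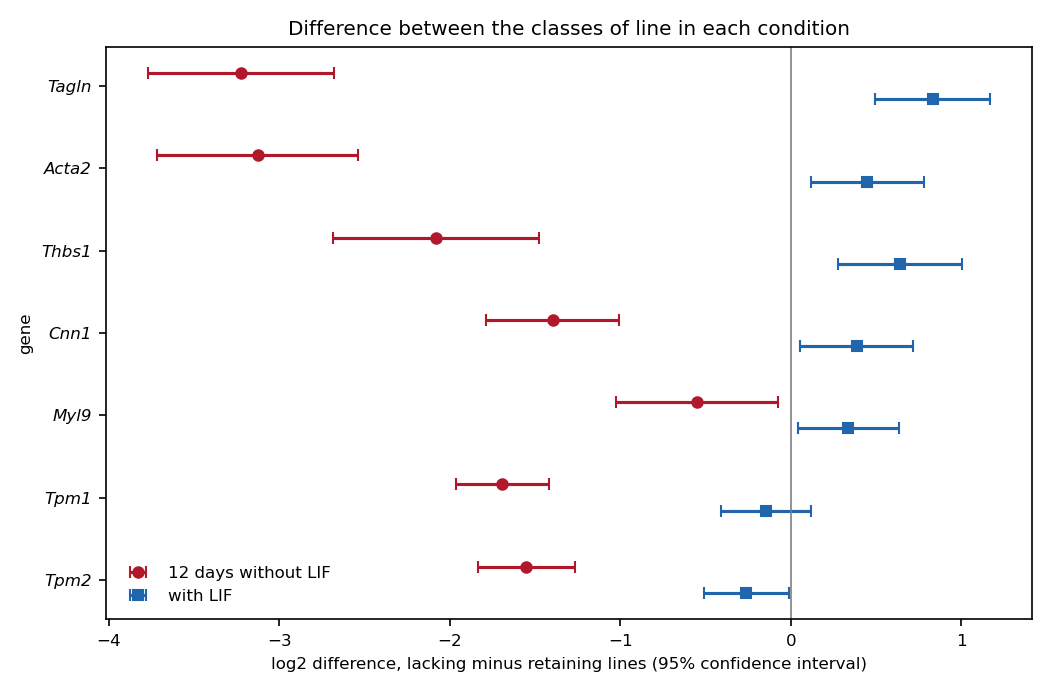
Difference in log2 signal between the lines that lack and the lines that retain a coiled coil (horizontal axis, lacking minus retaining) for each of the 7 genes (vertical axis), after 12 days without LIF (circles) and with LIF (squares). Whiskers are 95% confidence intervals from limma. Without LIF, all 7 points lie below 0, and with LIF 5 lie above it.

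For 6 of the 7 genes, the lacking lines without LIF all lay above the retaining lines with LIF, as did 18.4% of tested genes. Tpm2 was the exception. In cultures of mixed cells, fewer cells of a type and less RNA per cell cannot be told apart.

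Within the classes, some lines were often at the same end. Without LIF the coiled-coil-deleted line was the highest lacking line for all 7 genes, and the empty-vector line was the lowest for 6, with the doubly deleted line lowest for Acta2. With LIF the empty-vector line was the lowest of the 3 for all 7. Among the retaining lines without LIF, MBD3c was alone at the top for 5 genes. It shared the highest Myl9 signal, 8.03, with the MBD-deleted line and the highest Tpm2 signal, 9.12, with EBRTcH3, to 2 decimals. MBD3a was lowest for Acta2, Cnn1 and Myl9. With 1 array per line and condition, these orders within a class have no test.

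The 4 MBD3a constructs, in Mbd3 knockouts, are doubly deleted, coiled-coil-deleted, MBD-deleted or carry both domains. The line with both domains is titled in the first run and the other 3 in the second, so run and construct cannot be told apart where that line enters. Deleting the coiled coil lowered 6 of the 7 genes without LIF, against 6.13% of tested genes (limma, additive fit on 8 arrays). With 1 array per construct and condition, the spread in this fit is how far the deletions depart from adding up. It is not a spread between replicate lines, and the 2 arrays of a line were not paired in it. Acta2 differed by -2.91 ± 0.36 log2 (SE; 7.52-fold lower, adjusted p = 0.00506) and Tagln by -2.84 ± 0.24 (7.14-fold lower, adjusted p = 0.00143). Thbs1 changed by -1.66 ± 0.17, Tpm1 by -1.47 ± 0.13, Tpm2 by -1.37 ± 0.14 and Cnn1 by -1.23 ± 0.20, with adjusted p from 0.00162 to 0.0129. Myl9, at -0.36 ± 0.20, did not pass (adjusted p = 0.342). Within the second run alone, the doubly deleted line minus the MBD-deleted line was -3.80 for Acta2, -3.36 for Tagln, -1.89 for Thbs1, -1.65 for Cnn1, -1.45 for Tpm1, -1.19 for Tpm2 and -0.78 for Myl9, 1 array each and with no test. With LIF, deleting the coiled coil raised only Thbs1 of the 7, by 0.79 ± 0.17 (SE, adjusted p = 0.0349), against 5.36% of tested genes. With no filter on dim probe sets this did not pass (adjusted p = 0.0557), and within the second run the difference was 0.53. Tagln, at 0.92 ± 0.24, had an adjusted p of 0.059.

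Deleting the MBD moved none of the 7 genes past the threshold in either condition, nor any of the 22872 tested genes, a background of 0%. At an unadjusted p under 0.05, 1644 genes were counted without LIF and 3335 with LIF, and 0 of the 7 in either. Without LIF the effect was -0.30 for Tagln (95% confidence interval -0.86 to 0.27), -0.10 for Acta2 (-0.94 to 0.74), -0.33 for Thbs1 (-0.74 to 0.09) and 0.14 for Cnn1 (-0.34 to 0.61). It was 0.38 for Myl9 (-0.09 to 0.84), -0.14 for Tpm1 (-0.44 to 0.17) and -0.28 for Tpm2 (-0.60 to 0.04). For Tagln, Acta2, Thbs1, Cnn1, Tpm1 and Tpm2 these intervals leave out the values measured for the coiled-coil deletion. For Tagln, Acta2 and Myl9 they still allow changes of over 0.8 log2 in 1 direction. These effects average over both states of the coiled coil, at which single lines differed in sign for 4 genes, with 1 array each and no test. With the coiled coil deleted, in lines of the second run, deleting the MBD gave -0.99 for Acta2, -0.82 for Tagln, -0.29 for Cnn1 and -0.05 for Myl9. With the coiled coil retained, across the 2 runs, it gave 0.79, 0.23, 0.56 and 0.80. With 1 array per construct and condition, this fit left 2 residual degrees of freedom before moderation.

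Other smooth muscle genes had smaller median changes, but the 7 were chosen with earlier results of these data known, so this contrast is no test. Of 26 further contractile and structural genes, 24 were tested. LIF withdrawal raised 3 of them in the lacking lines and 16 in the retaining lines, and lowered 0 in both, with median changes of 0.23 and 0.51. Over all tested genes, 1.22% fell in the lacking lines and 14.5% in the retaining lines. The response was smaller in the lacking lines for 6 and larger for 0. Pdlim3, which encodes a PDZ and LIM domain protein of the actin cytoskeleton, rose by 0.68 in the lacking lines against 2.77 ± 0.09 (SE) in the retaining lines. Cald1, which encodes the actin- and myosin-binding protein caldesmon, was at 0.49 (adjusted p = 0.0733) in the lacking lines and rose by 2.41 ± 0.10 in the retaining lines. Csrp1, a LIM protein gene of smooth muscle, rose by 1.00 and 2.11 in the lacking and retaining lines. For Vcl, which encodes the adhesion protein vinculin, the values were 0.18 (adjusted p = 0.655) and 1.11. The plot of changes in the 2 classes places these genes beside the 7.

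**Figure D4:**
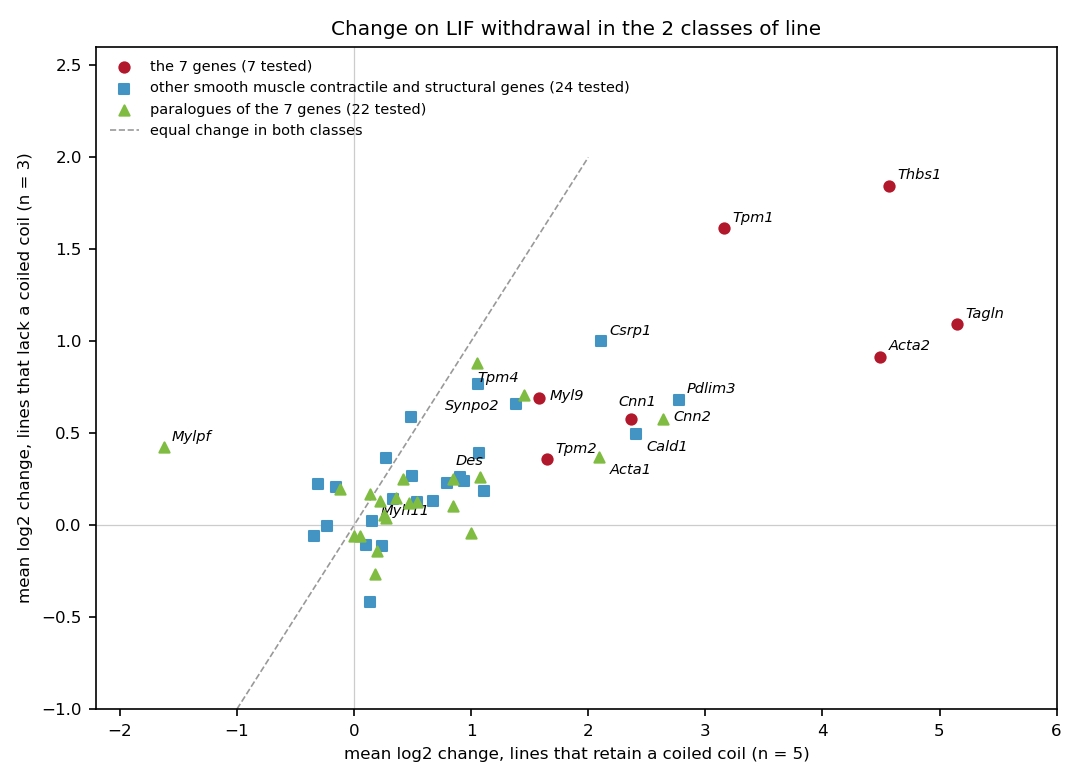
Mean log2 change on LIF withdrawal in the lines that lack (vertical axis, n = 3) and that retain (horizontal axis, n = 5) a coiled coil, for the 7 genes (circles), 24 other smooth muscle contractile and structural genes (squares) and 22 paralogues (triangles). The dashed line marks equal change, and the axes differ in scale. All 7 genes lie to its right, with Tagln at 1.09 and 5.15, whereas Mylpf lies at 0.42 and -1.63.

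Markers of differentiated smooth muscle gave a mixed picture. Of 8 such genes, 1 rose in the lacking lines and 6 in the retaining lines, with medians of 0.13 and 0.40. All but Myocd (myocardin) are also among the 24 genes counted above, and Myocd is counted again below among the upstream genes of the SRF pathway. Myocd, among the 6, had dim signal close to the array medians. Synpo2, an actin-bundling protein gene, rose by 0.66 in the lacking lines and 1.38 in the retaining lines. Its level was higher in the lacking lines with LIF, by 0.82 (limma, adjusted p = 0.00371), and did not differ past the threshold without LIF (0.10, adjusted p = 0.573). In the retaining lines the intermediate filament gene Des rose by 0.91, the leiomodin gene Lmod1 by 0.68 and the enteric smooth muscle actin gene Actg2 by 0.53, and none of the 3 passed in the lacking lines (0.26, 0.13 and 0.12). The genes that did not pass in either class, named after their values were seen, were Myh11, the myosin heavy chain of mature smooth muscle (0.02 in the lacking lines, and 0.15 with adjusted p = 0.163 in the retaining lines), and the potassium channel subunit gene Kcnmb1 (-0.11, and 0.10 with adjusted p = 0.347). The mean level of the 8 markers was 5.84 to 5.94 without LIF in the lacking lines, against 6.23 to 6.34 in the retaining lines. It was 5.65 to 5.86 with LIF in the lacking lines, against 5.61 to 5.90 in the retaining lines.

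Paralogues of the 7 genes moved with them only in part. Of 22 tested, 2 rose in the lacking lines and 14 in the retaining lines, and 0 and 1 fell. The calponin gene Cnn2 was at 0.58 (adjusted p = 0.0573) in the lacking lines and rose by 2.64 in the retaining lines. For the skeletal muscle actin gene Acta1 the values were 0.37 (adjusted p = 0.154) and 2.09. Coding sequences of the actins are nearly identical, and whether the Acta1 and Acta2 probe sets read each other's RNA was not tested. The tropomyosin gene Tpm4 rose by 0.71 in the lacking and 1.45 in the retaining lines. Mylpf, a myosin light chain gene of fast skeletal muscle, ran the other way, at 0.42 (adjusted p = 0.224) in the lacking lines and -1.63 in the retaining lines, where it fell.

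Of 19 tested genes that act upstream in the SRF pathway, 0 rose and 0 fell in the lacking lines, where limma called 670 genes in all and 3603 at an unadjusted p under 0.05. In the retaining lines 7 rose and 4 fell. Srf itself was at 0.45 (adjusted p = 0.0671) in the lacking lines and rose by 0.85 ± 0.09 (SE) in the retaining lines, and the 2 responses did not differ past the threshold (adjusted p = 0.107). The cofactor gene Fhl2 (0.14 and 1.11) and the ETS factor gene Elk3 (0.16 and 0.83) rose in the retaining lines and not past the threshold in the lacking lines, and both responses differed. The Krüppel-like factor gene Klf2 fell in the retaining lines (-0.43 in the lacking lines, -1.20 in the retaining lines). The SRF partner genes, named after their values were seen, had small changes in the retaining lines: Myocd (myocardin) rose by 0.27 (adjusted p = 0.0465), Mrtfa was at 0.17 (adjusted p = 0.0737) and Mrtfb at 0.16 (adjusted p = 0.269).

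Of 23 tested genes known as general SRF and MRTF targets, 5 rose in the lacking lines and 18 in the retaining lines, and 0 and 2 fell. Some are counted in lists above too: Vcl and Flna as smooth muscle genes, Srf and Fhl2 as upstream genes, and Actb, Tpm3 and Tpm4 as paralogues. The responses of 9 were lower in the lacking lines and that of 1 was higher. Ccn1, a secreted matricellular protein gene, rose by 0.99 in the lacking lines and 2.46 in the retaining lines. Fhl1 rose by 0.84 and 1.33, and its 2 responses did not differ past the threshold (limma, adjusted p = 0.0718). Ankrd1, a muscle ankyrin repeat gene, was at -0.10 (adjusted p = 0.852) in the lacking lines and rose by 1.38 in the retaining lines, and the focal adhesion gene Zyx was at 0.26 (adjusted p = 0.338) and rose by 1.26. YAP and TAZ act through TEAD factors, and their list shares Ccn1, Ccn2 and Ankrd1 with this list. Of 17 YAP and TAZ target or pathway genes, 3 rose and 1 fell in the lacking lines, and 13 rose and 0 fell in the retaining lines. The tissue factor gene F3 was at 0.65 (adjusted p = 0.208) and rose by 2.35, and the receptor kinase gene Axl was at 0.50 (adjusted p = 0.176) and rose by 1.72. The ectonucleotidase gene Nt5e moved in opposite directions, by -0.99 (adjusted p = 0.0283) in the lacking lines and 1.36 in the retaining lines.

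Around Thbs1, of 16 tested receptors and partners of thrombospondin-1, 2 rose in the lacking lines and 10 in the retaining lines, and 0 fell in both. The integrin gene Itga3 was at 0.28 (adjusted p = 0.323) in the lacking lines and rose by 2.27 in the retaining lines. Cd47, the gene of a thrombospondin receptor, was at -0.18 (adjusted p = 0.43) and rose by 1.43, while the receptor gene Cd36 was not above the 40th percentile on any array. Adamts1, a metalloproteinase gene, was at 0.31 (adjusted p = 0.492) and rose by 1.54, and the proteoglycan gene Sdc1 rose by 0.72 and 1.41. In the TGF-beta pathway, 1 of 19 tested genes rose and 1 fell in the lacking lines, and 11 rose and 2 fell in the retaining lines. The ligand gene Tgfb2 was at 0.07 (adjusted p = 0.937) in the lacking lines and rose by 2.64 ± 0.20 (SE) in the retaining lines. The receptor genes Tgfbr3 (-0.13 and 1.34) and Tgfbr2 (-0.24 and 0.98) and the signal transducer gene Smad3 (-0.04 and 1.24) rose in the retaining lines and did not pass in the lacking lines. Smad3 was already higher in the lacking lines with LIF, by 1.28 (limma, adjusted p = 0.00112). Without LIF its level did not differ between the classes (-0.002, adjusted p = 0.992).

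Markers of other cell types moved with the 7 genes in some lists, and their part in the results was not tested. The list of trophoblast and simple epithelium had 3 of 7 tested genes up in the lacking lines and 6 up in the retaining lines, with medians of 0.75 and 3.45. The response was lower in the lacking lines for 6 of the 7 and higher for 1. Without LIF, 5 were lower in the lacking lines and 1 was higher, so the list did not move as a whole. Its keratin genes Krt18 (0.75 with adjusted p = 0.147, and 4.76) and Krt8 (1.02 and 4.28) had the largest changes of the list in the retaining lines. The list's mean level was 7.53 to 7.83 without LIF in the lacking lines, against 8.41 to 9.87 in the retaining lines. With LIF it was 6.62 to 7.08 in the lacking lines, against 5.82 to 6.38 in the retaining lines. The mean level of the 7 genes was also lower in the lacking lines without LIF, at 7.30 to 7.92 against 9.28 to 9.90 in the retaining lines. With LIF the classes overlapped for the 7 genes, unlike for the list, at 6.29 to 6.72 in the lacking and 6.08 to 6.39 in the retaining lines.

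Of 8 pluripotency markers, 2 fell in the lacking lines and 7 in the retaining lines, with medians of -0.33 and -1.05. Of 7 tested fibroblast and myofibroblast markers, 0 rose in the lacking lines and 5 in the retaining lines, and the mean level over the 9 genes on the array was 5.73 to 5.81 without LIF in the lacking lines, against 5.86 to 6.45 in the retaining lines. With LIF it was 5.58 to 5.88 in the lacking lines, against 5.62 to 5.74 in the retaining lines. Of these, the proteoglycan gene Dcn was at 0.01 (adjusted p = 0.983) and rose by 1.05, and the collagen gene Col1a1 was at 0.00 and rose by 0.77. The related proteoglycan gene Lum was not above the 40th percentile on any array. Of 6 pericyte markers 0 and 2 rose, among them Notch3, at 0.38 (adjusted p = 0.0638) in the lacking lines and 1.53 in the retaining lines. In the retaining lines 2 of 9 cardiac, 2 of 8 skeletal muscle, 2 of 6 endothelial and 3 of 7 endoderm markers rose, and 1, 1, 2 and 3 fell. In the lacking lines 0 rose in these 4 lists, and 1 endoderm marker fell.

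The genes whose signal ran closest to that of the 7, by Pearson r over the 16 arrays with the mean of their standardised profiles, were Pdlim3 (0.990), the adhesion protein gene Igsf9 (0.990), Acta1 (0.986), the transcription factor gene Ets1 (0.985) and Actr3 (0.985), which encodes an actin-nucleating subunit. They were followed by the actin-disassembly gene Wdr1 (0.983), and by Lrrn4, the integrin-linked kinase gene Ilk, Rhpn2 and Lrrc8c (0.982 each). Running most opposite were the pluripotency factor gene Esrrb (-0.971), Mras (-0.970), Parvb (-0.970), Dlgap3 (-0.969) and Cpt1a (-0.967). These are descriptions: the arrays share lines, and the 5 arrays of the retaining lines without LIF stand apart from the rest.

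Among themselves the 7 genes correlated at 0.78 (Myl9 and Tpm2) to 0.99 (Tagln and Acta2). For Tagln the nearest genes were Acta2 (0.993), Acta1 (0.992) and Pdlim3 (0.992), and for Acta2 they were Acta1 (0.996), Tagln and Cnn1 (0.987). Cnn1 was nearest to Acta2 (0.987), Tagln (0.986) and Igsf9 (0.985). Each of these 3 had another member of the 7 among its nearest genes, beside genes that are no members, such as Acta1 for Acta2 and Tagln. The other 4 had no member of the 7 among their nearest genes. Thbs1 was nearest to Rasef (0.990), Igsf9 (0.990) and Chst15 (0.983), and Tpm1 to Pea15a (0.988), Amotl1 (0.987) and Rhpn2 (0.986). Tpm2 was nearest to Rcn2 (0.990), Ets2 (0.987) and Ddr1 (0.986), and Myl9 to Adk (0.954), Adamts19 (0.949) and Gpm6a (0.949).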

How the data were processed

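Total RNA was extracted with RNeasy columns and labelled with the Affymetrix WT Plus kit, per the labels' protocols. The authors deposited log2 signals, and the submitters' processing notes name RMA and affy, without versions. Of 65770 probe sets, 27 had no value, 30439 had 1 gene symbol, 2146 had several and 33158 had none. Symbols were updated by Entrez identifier (22653 matched, 827 updated), and the brightest probe set of each gene was kept (30102 genes). Tests covered the 22872 genes whose signal passed the array's 40th percentile on 3 arrays or more. limma 3.58.1 was used in R 4.3.3, adjusting p-values by Benjamini-Hochberg over all tested genes. There were 10 comparisons, and changes on LIF withdrawal were fitted as differences within a line, which makes the line a block. The labels give that pairing, as both arrays come from the same cell line, and in the data the deviations of the 2 arrays of a line correlated at -0.052 to 0.28. No depth exists for arrays, so the number of arrays limits the precision. The members and lists were chosen with earlier results of these data known. Genes named beside the 7 were the up to 4 of each list with the largest difference in response or change in the retaining lines, and the 10 most and 5 least alike and 3 nearest to each member; exceptions are stated. Fits were tested on simulated data. Alternatives were the filter, the probe set rule, centring, moderation, array weights, title runs, the block, and leaving out each line.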

Additional observations from a re-analysis of the deposited data

Results flagged for a closer look

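All 7 genes responded differently to LIF withdrawal in the lacking and the retaining lines by limma's test of the difference itself. The log2 differences, lacking minus retaining, were -4.06 for Tagln, -3.58 for Acta2, -2.72 for Thbs1, -1.78 for Cnn1, -1.54 for Tpm1, -1.29 for Tpm2 and -0.89 for Myl9, and in the same direction 7.9% of tested genes passed.

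Among 21 groups of 5 retaining lines, 2 held a line far from the others by Dixon's test, which by chance marks about 1 in 20. Thbs1 without LIF was at 11.19 in the MBD3c line, where the other retaining lines were at 10.21 to 10.32. Myl9 with LIF was at 6.30 in the MBD-deleted line, where the other retaining lines were at 5.97 to 6.05.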

How the results depend on the processing

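Over 854 values of the 7 genes under alternative settings, 776 kept their direction where a gene had passed and their side of the threshold, 68 lost their call, 10 gained one and 0 changed direction after a call. All 7 genes rose over all lines and in the retaining lines, and all 7 responses were lower in the lacking lines, under every setting except the second title run alone. That run has 3 lines, which left 1 residual degree of freedom where the classes were fitted, and over all lines 0 of the 7 passed in it. For the lower responses, the first title run alone (Cnn1 -1.48 and Myl9 -0.94, with 1 lacking line) and leaving out a line (6 to 7) were exceptions too. That second run holds 1 retaining line, so its counts of calls cannot decide whether these genes differ. There the 6 lower genes without LIF differed by -1.14 to -3.31, and the 7 responses by -0.88 to -4.16. The 5 rises in the lacking lines came to 2 with trended robust moderation, 3 with the title run as a covariate, 1 in the first run, 0 in the second and 3 with no replicate block, and to 2 to 5 without 1 line; the cause was not tested. With LIF, the 2 genes higher in the lacking lines became 5 with array weights, 1 with the run covariate, 0 in each run, and 1 to 5 without 1 line. The 1 gene raised by deleting the coiled coil with LIF came to 0 with no filter and to 2 with centring, trended robust moderation or array weights. Counts over all genes that split the classes within a title run are left out here, as each run holds only 1 line of 1 class. Otherwise, counts over all genes moved more than 1.5 times in the lacking lines (670 calls, 114 without the empty-vector line, 266 without the coiled-coil-deleted line, 280 without the doubly deleted line, 386 with trended robust moderation, 1039 without the MBD-deleted line, 1145 with the run covariate, 1661 with array weights). They did so too for the difference in response (2759; 1353 without the coiled-coil-deleted line, 1369 without the doubly deleted line, 5455 with array weights). The same held with LIF (3233; 1779 without the coiled-coil-deleted line, 1852 without the doubly deleted line, 5373 with array weights) and without LIF (4791; 3014 without the doubly deleted line). Over all lines 5715 calls became 3761 without MBD3a, 3645 without MBD3c and 18 in the second run, and for the MBD deletion with LIF 0 became 407 with trended robust moderation, none of them among the 7.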

Other observations

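Among the marker genes, 3 were picked after their values were seen because they differed between the classes of line already with LIF. The intermediate filament gene Vim was lower in the lacking than in the retaining lines in both conditions, with log2 differences of -1.79 with LIF (limma, adjusted p = 0.00106) and -1.72 without LIF (adjusted p = 0.0026). Des, the muscle intermediate filament gene, was lower too, with differences of -1.44 with LIF (adjusted p = 0.00422) and -2.08 without LIF (adjusted p = 3.3e-05). Thy1, a surface glycoprotein gene, was higher in the lacking lines by 1.33 with LIF (adjusted p = 8.3e-05) and by 0.79 without LIF (adjusted p = 0.000398). The responses to LIF withdrawal, lacking minus retaining, differed by 0.07 for Vim (adjusted p = 0.917), -0.65 for Des (adjusted p = 0.115) and -0.54 for Thy1 (adjusted p = 0.0295).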
